A study of Mus musculus with 8 samples.

Results

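The kinesin genes are described here, a family of 37 genes among the 19938 measured on 8 arrays. Members were taken by symbol: each row of the array table whose platform annotation gives a single symbol made of Kif and a number was kept, pseudogenes were left out, and a gene with several rows was represented by its brightest. This left 37 genes from 42 rows, and no row that names several genes holds a symbol of this form. By the role for which each motor is best known, 12 genes were placed in a mitotic class and 13 in a class of cargo transport, and the remaining 12 form a mixed class of ciliary, signalling and microtubule-regulating kinesins.

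Kinesins are motor proteins that use ATP to walk along microtubules or to take microtubules apart. In dividing cells a set of them builds the spindle, moves chromosomes and completes cytokinesis, and their genes are known to be transcribed mainly in G2 and M phase. Other members carry vesicles, mitochondria and ciliary components, and are used by cells whether or not they divide. Comparing the classes therefore sets the RNA of division motors beside that of transport motors within a single gene family.

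The mice were of the FvB strain and carried the MMTV-Neu transgene, in which the promoter of the mouse mammary tumor virus drives the Neu (Erbb2) oncogene mainly in mammary epithelium. Primary mammary tumors under 1.0 cm in diameter were dissociated mechanically and sorted into tumor-initiating cells (TIC) and a non-initiating CD24- fraction, called CD24-negative below. Both groups come from the same tumors: N251, N260, N283 and a pool of N222 and N229, combined in equal parts before the sort, so 4 TIC arrays are each paired with 1 of 4 CD24-negative arrays. Tumor names follow the sample titles; for N251 and N260 the growth protocol has N250 and N261. Neither the age of the mice nor the gate that defined TIC is known from the labels. Values are log2 intensities, in which a difference of 1 is a 2-fold change, and a difference is always TIC minus CD24-negative.

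The mean level of 8 epithelial markers lay between 10.09 and 10.33 in the TIC arrays and between 9.49 and 10.16 in the CD24-negative arrays; those of basal cells, Krt5 (6.18 in TIC, 6.16 in CD24-negative) and Krt14 (6.54 and 6.56), were far below that mean in both. The mean level of 17 leukocyte markers lay between 6.30 and 6.61 in the TIC arrays and between 9.72 and 12.25 in the CD24-negative arrays, highest in N251 and lowest in the pool. All 17 were lower in the TIC fraction of all 4 tumors, and 16 were called, that is passed an adjusted p of 0.05, in the paired limma fit (14 without the pairing), among them Ptprc, the CD45 antigen gene (-4.29 ± 0.50 SE), and the lysozyme gene Lyz2 (-5.77 ± 0.54). The 7 fibroblast markers (mean level 6.65 to 6.92 in TIC, 6.93 to 7.22 in CD24-negative arrays), 6 endothelial markers (5.94 to 6.19 and 6.27 to 6.73) and 7 neuronal and neuroendocrine markers (6.04 to 6.37 and 6.09 to 6.22) held 0 genes called in the paired fit. Lower in the TIC array of all 4 tumors, however, were 5 of the fibroblast and 4 of the endothelial markers (11.8% of all genes). Among them were decorin (Dcn, -1.55 ± 0.44 SE) and endoglin (Eng, -0.96 ± 0.23), the lowest differences of their lists. The list medians were -0.15 (fibroblast) and -0.19 (endothelial). The fibroblast gene Lum, at a low level in both fractions (4.19 in TIC, 4.59 in CD24-negative), was called lower with the tumor as a random block. In that fit 3.04% of all genes fell. The part of these cells in the kinesin results was not tested. The epithelial adhesion gene Epcam stood at 12.09 ± 0.08 (TIC; SD, n = 4) and 11.69 ± 0.42 (CD24-negative). Cd24a, the gene of the antigen named in the sort, was at 12.32 ± 0.21 and 11.22 ± 0.67, so its RNA was present in the CD24-negative arrays too.

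Mitotic kinesins were higher in the TIC fraction. Of the 12 genes, 11 were higher in the TIC array of all 4 tumors, whereas 23.2% of all genes were so and 11.8% were lower in all 4. The median difference of the class was 0.76, against 0.04 over all genes. Classes were set with earlier results known. Kif2a, a depolymerase also of spindle poles (difference 0.01, higher in 2 tumors), and Kif24 (0.39, higher in 4) were left outside. With both counted as mitotic the median was 0.72. In the paired fit (limma, tumor as a block, Benjamini-Hochberg adjusted p under 0.05 over all genes) 5 of the 12 rose and 0 fell, where 0.863% of all genes rose and 1.09% fell. These 5 were Kif11, Kif20a, Kif2c, Kif18b and Kif22. Without the replicate block 0 of the 12 were called (limma, lowest adjusted p = 0.211), where 0.0502% of all genes rose and 0.742% fell, so the calls rest on setting each TIC array against its own tumor. With the tumor as a random block 4 rose, Kif22 being lost (limma, adjusted p = 0.0587), where 2.16% of all genes rose and 3.04% fell. Leaving out N260 or N283, or testing every row of the array, ended all 5 calls (adjusted p from 0.184 to 0.269, 0.146 to 0.173 and 0.0584 to 0.0895), but 0% of all genes or rows rose in each of these fits, so the loss was not limited to kinesins. Without the pool 3 of the 12 were called, where 0.371% of all genes rose, and without N251 9 were called, where 1.81% rose.

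Kif11 showed the largest difference of the family's rises. It encodes the motor that slides spindle microtubules apart so that the poles separate. Its TIC arrays read 9.15 (N251), 9.87 (N260), 9.88 (N283) and 8.32 (pooled tumors), and its CD24-negative arrays 7.90, 8.97, 8.09 and 6.75 in the same order. Each TIC array stood above its partner, yet the TIC array of the pool lay below the CD24-negative array of N260, so the groups overlap. The difference was 1.37 ± 0.15 (SE, paired fit), or 2.59-fold (limma, adjusted p = 0.0255, and 0.253 without the block).

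Kif20a, which brings the chromosomal passenger complex to the midzone for cytokinesis, read 8.45, 9.01, 8.97 and 8.09 in the TIC arrays of N251, N260, N283 and the pool. Its CD24-negative arrays read 7.38, 8.34, 7.96 and 7.42. It was 1.81-fold higher in the TIC fraction (0.86 ± 0.10 SE; limma, adjusted p = 0.0277), and its difference was largest in N251 (1.08) and N283 (1.01). Kif2c is a depolymerase that frees faulty attachments of chromosomes to the spindle. Its TIC arrays read 7.82, 8.28, 8.41 and 7.24 and its CD24-negative arrays 6.91, 7.69, 7.26 and 6.48, a rise of 0.85 ± 0.11 (limma, adjusted p = 0.0306). The order of the tumors was nearly kept between fractions for both genes, with the pool lowest in all but the CD24-negative arrays of Kif20a.

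Kif18b, which trims the microtubules that reach from the spindle poles to the cell cortex, had the smallest paired p of the family. Its TIC arrays read 8.18, 8.70, 8.59 and 7.63 and its CD24-negative arrays 7.44, 7.85, 7.53 and 6.87, with differences between 0.73 and 1.06 in the 4 tumors. The mean was 0.85 ± 0.09 (limma, adjusted p = 0.0222). Kif22, a motor bound to chromosome arms that pushes them towards the spindle equator, read 7.32, 7.83, 7.79 and 6.84 against 6.89, 7.08, 6.89 and 6.01, a rise of 0.72 ± 0.10 (limma, adjusted p = 0.0395). In N251 the gap of Kif22 was 0.42, the smallest of the 4.

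**Figure D1:**
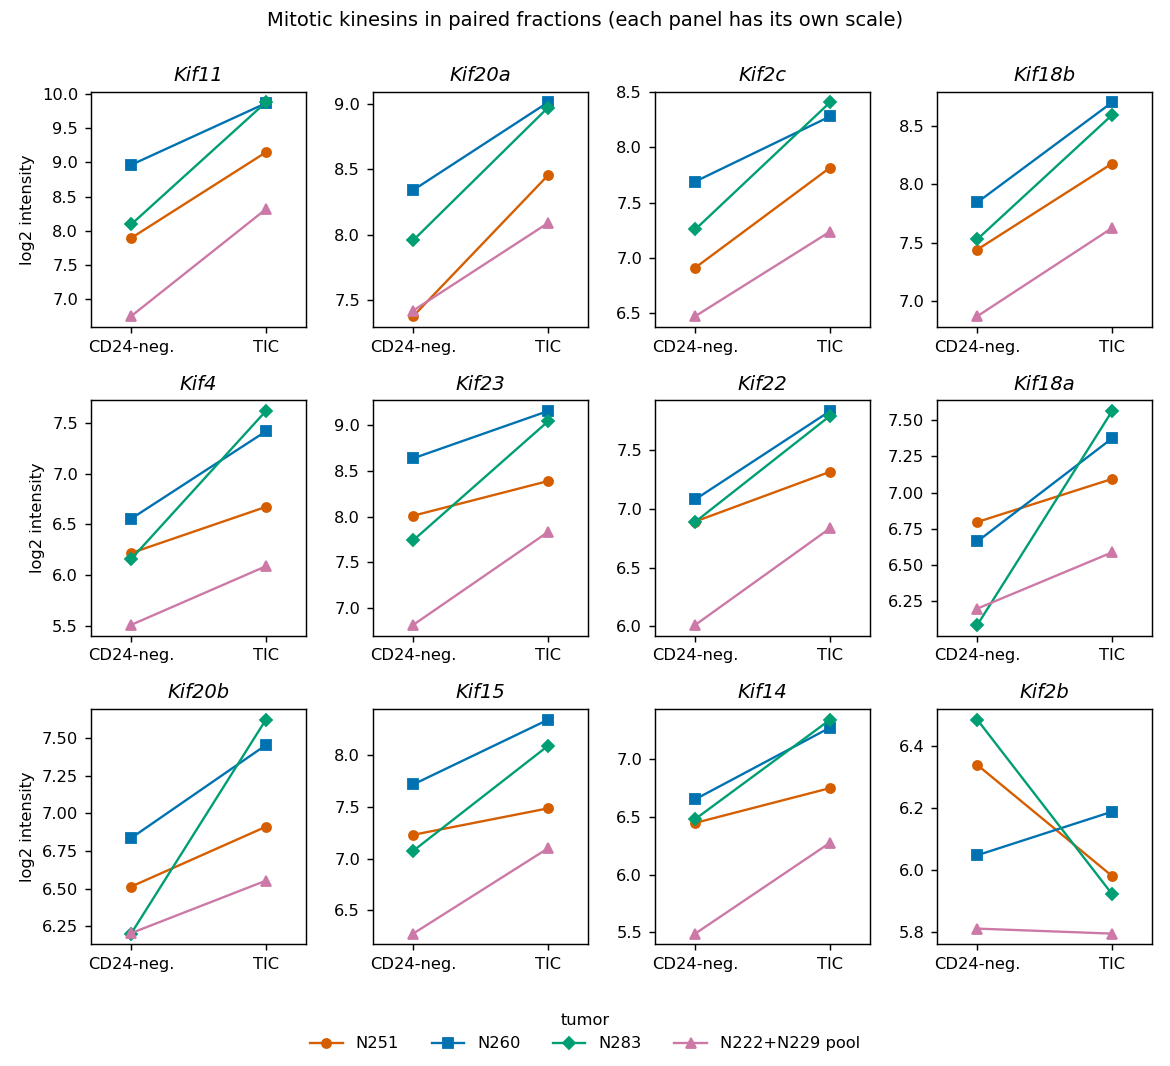
Log2 intensity of the 12 mitotic kinesins (vertical axis, own scale in each panel) in the CD24-negative and TIC arrays (horizontal axis), a line joining the 2 fractions of a tumor. In 11 panels all 4 lines climb from CD24-negative to TIC, and only Kif2b departs from this; the pool of N222 and N229 has the lowest TIC array in all 12.

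The other 6 mitotic kinesins that were higher in all 4 tumors missed the threshold of the paired fit, with adjusted p-values from 0.056 to 0.135 (limma) and differences from 0.64 to 0.84. Kif4, a chromosome-bound motor that also organises the midzone, differed by 0.84 ± 0.17, from 0.45 in N251 to 1.46 in N283. Kif23, the motor subunit of centralspindlin, differed by 0.80 ± 0.17, and Kif15, which can stand in for Kif11 in keeping the spindle bipolar, by 0.68 ± 0.13. Kif14, a cytokinesis motor, differed by 0.64 ± 0.11; a second, dimmer row of this gene did not follow, with a difference of -0.07. The differences of Kif18a, which damps chromosome oscillations, and of Kif20b, a further cytokinesis motor, were 0.72 ± 0.20 and 0.70 ± 0.19. They were largest in N283, at 1.48 and 1.42 against 0.30 to 0.71 and 0.35 to 0.62 in the other tumors. Without N283 they were 0.47 and 0.45. Kif2b, a mitotic depolymerase related to Kif2c, was the exception of the class, at a low level (percentile 22.9 of all genes by mean level). It read 5.98, 6.19, 5.92 and 5.795 in the TIC arrays and 6.34, 6.05, 6.48 and 5.81 in the CD24-negative arrays, a difference of -0.20 ± 0.13 (limma, adjusted p = 0.423), and was higher in the TIC array of N260 only.

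Mitotic kinesins also differed between tumors. Each tumor has a single array per fraction, so a difference of tumors cannot be told apart from that of arrays. The median SD of the tumor means over the 12 mitotic genes was 0.48, against 0.21 for the transport and 0.15 for the other class. The lowest TIC array was that of the pool for all 12 genes, and the highest was that of N260 for 6 and that of N283 for 6. The share of all genes with the pool lowest was not counted. Over all genes the pool had the lowest median, 7.32 (TIC) and 7.33 (CD24-negative) against 7.41 to 7.48 in the other arrays. Its mean, 7.54 in both fractions, was not the lowest. Among CD24-negative arrays N260 was highest for 10 of the 12 and the pool lowest for 9. For all 12 genes the TIC array of the pool stood below the CD24-negative array of N260. As a result every TIC array lay above every CD24-negative array for 0 of the 12, where 5.19% of all genes met that condition and 4.68% met the opposite. Within tumors, the difference was largest in N283 for 10 of the 12 genes and smallest in N251 for 7.

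Promoter sequences were set beside these values because the members moved together. RefSeq windows of GRCm38.p6, from 250 bases before to 50 after a gene's start, were found for 31 of the 37 members, among them 11 mitotic, 10 transport and 10 other kinesins. Many genes of G2 and M phase are known to carry a cell cycle homology region (TTTGAA) close to the start, often with CCAAT boxes upstream, and both motifs were searched on both strands (TTCAAA and ATTGG being the reverse complements). TTTGAA was found in 9 of the 11 mitotic windows, 1 of 10 transport genes and 2 of 10 other genes, where 20.2% of 27025 genes in the table held it in at least 1 window (17.9% of windows). CCAAT was found in 7 of 11, 3 of 10 and 4 of 10, where 41.1% of genes held it. Both motifs together were in 6 of 11 mitotic, 0 of 10 transport and 2 of 10 other genes, against 8.97% of all genes. A match of letters is not a bound site, and binding was not measured.

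The windows of 4 of the kinesins that rose are printed 5′ to 3′ in the direction of the gene, with matches to either motif in capitals, followed by that of Kif1c, the transport kinesin with the highest difference, for contrast. They lie at chr19:37376132-37376431 (plus strand, Kif11), chr11:102925075-102925374 (minus, Kif18b), chr7:127042371-127042670 (minus, Kif22), chr4:117178723-117179022 (minus, Kif2c) and chr11:70700298-70700597 (plus, Kif1c) of GRCm38.p6.
Kif11: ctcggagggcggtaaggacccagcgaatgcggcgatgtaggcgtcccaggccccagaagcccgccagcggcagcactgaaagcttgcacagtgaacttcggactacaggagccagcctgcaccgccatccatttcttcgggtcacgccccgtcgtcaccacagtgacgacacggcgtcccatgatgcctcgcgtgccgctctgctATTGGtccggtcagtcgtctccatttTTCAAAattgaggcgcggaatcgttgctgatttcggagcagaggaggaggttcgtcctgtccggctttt
Kif18b: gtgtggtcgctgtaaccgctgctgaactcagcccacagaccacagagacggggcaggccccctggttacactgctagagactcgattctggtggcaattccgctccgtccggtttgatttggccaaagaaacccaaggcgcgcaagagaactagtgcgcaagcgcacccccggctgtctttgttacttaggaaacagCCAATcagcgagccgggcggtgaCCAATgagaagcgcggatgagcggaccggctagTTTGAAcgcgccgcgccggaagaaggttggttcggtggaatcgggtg
Kif22: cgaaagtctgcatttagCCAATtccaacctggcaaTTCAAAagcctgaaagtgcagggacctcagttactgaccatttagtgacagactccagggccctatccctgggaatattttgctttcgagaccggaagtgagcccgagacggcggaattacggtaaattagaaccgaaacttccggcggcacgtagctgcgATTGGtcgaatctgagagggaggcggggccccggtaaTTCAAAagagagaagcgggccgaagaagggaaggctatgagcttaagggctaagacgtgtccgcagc
Kif2c: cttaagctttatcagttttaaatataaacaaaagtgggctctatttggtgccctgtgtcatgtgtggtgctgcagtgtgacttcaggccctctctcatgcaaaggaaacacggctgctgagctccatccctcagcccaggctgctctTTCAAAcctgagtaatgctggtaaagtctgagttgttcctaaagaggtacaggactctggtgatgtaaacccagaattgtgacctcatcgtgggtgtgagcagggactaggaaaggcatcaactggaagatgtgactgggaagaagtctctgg
Kif1c: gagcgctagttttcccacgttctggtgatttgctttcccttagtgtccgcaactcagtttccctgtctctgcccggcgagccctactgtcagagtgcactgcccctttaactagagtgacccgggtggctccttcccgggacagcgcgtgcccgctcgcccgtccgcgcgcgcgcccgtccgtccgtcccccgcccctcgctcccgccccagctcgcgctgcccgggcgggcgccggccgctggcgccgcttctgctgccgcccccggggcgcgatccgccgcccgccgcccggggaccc

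In Kif11 the TTTGAA match (opposite strand) begins 19 bases before the start and an ATTGG 45 bases before it. Kif22 has the same pair at 17 and 54 bases before the start, plus a further match to each motif farther upstream. In Kif18b both motifs read in the direction of the gene, with TTTGAA at base 4 after the start and CCAAT at 30 and 53 bases before it. Kif2c differs from these 3: its only match lies 103 bases upstream, with no CCAAT in the window. Among mitotic members that were not called, Kif15 has matches 19 and 234 bases before the start, Kif14 has 1 at 228 bases before it, and Kif23, Kif20b and Kif4 have their first matches at bases 3, 8 and 20 after it. Kif18a and Kif2b hold no TTTGAA in the window, and Kif18a was nevertheless higher in all 4 tumors. Neither motif occurs in the window of Kif1c.

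Genes that work with mitotic kinesins were higher with them. Of 21 measured partners and regulators 15 rose and 0 fell in the paired fit (0.863% and 1.09% of all genes). With a random block 10 rose (2.16% of all genes), and without the block 0 were called. Higher in all 4 tumors were 20 of the 21 (23.2% of all genes), with a median of 0.90. Cdk1, the kinase that drives entry into mitosis, differed by 1.37 ± 0.12 (limma, adjusted p = 0.0189), Prc1, the microtubule bundler that recruits Kif4 to the midzone, by 1.24 ± 0.11 (limma, adjusted p = 0.0189), and Nusap1, a spindle protein, by 1.23 ± 0.14 (limma, adjusted p = 0.026). Racgap1, which pairs with Kif23 in centralspindlin, rose by 0.86 ± 0.11 although Kif23 itself was not called. Cenpe, the kinetochore kinesin whose symbol falls outside the family's name pattern, rose by 0.77 ± 0.12 (limma, adjusted p = 0.0434, and 0.331 without the block). Of the minus-end kinesins with measured single rows, Kifc3 differed by 0.45 ± 0.20 (limma, adjusted p = 0.259) and Kifc2 by -0.03, and neither was called.

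Transport kinesins differed less between the fractions than the mitotic class did. Of the 13 genes 0 rose and 0 fell in the paired fit, in the fit without the block and with a random block (limma). The median difference was 0.18, against 0.04 over all genes. At an unadjusted paired p under 0.05 stood 3 of the 13 above and 1 below 0, where 14.2% of all genes stood above and 8.08% below. Higher in all 4 tumors were 5 of them, Kif1c, Kif3a, Kif3c, Kif13a and Kif5a (23.2% of all genes). Lower in all 4 was 1, Kif1a (11.8% of all genes). The median was 0.40 in N251 and between -0.01 and 0.11 in the other tumors, and 0.06 without N251.

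Kif1c, a motor of vesicle transport, read 8.93, 8.92, 9.14 and 9.15 in the TIC arrays of N251, N260, N283 and the pool and 7.94, 8.51, 8.87 and 8.91 in the CD24-negative arrays. It is the sole member (1 of 37) whose TIC arrays all stood above the CD24-negative arrays, where 5.19% of all genes met that condition. The ranges nearly touched, however, at 8.916 (TIC, N260) and 8.913 (CD24-negative, pool). The difference of Kif1c was 0.48 ± 0.14 (limma, adjusted p = 0.147), and its second row gave 0.57. Kif3a, a subunit of the kinesin-2 motor that builds cilia, read 7.54, 7.56, 7.90 and 7.86 against 6.69, 7.48, 7.52 and 7.63 (0.39 ± 0.14; limma, adjusted p = 0.188). This difference was largest in N251, where the CD24-negative array was low, at 0.85 against 0.09 to 0.38 elsewhere. Kif3b, its partner subunit, differed by -0.0034 (95% interval -0.23 to 0.22), and Kif3c, an alternative partner of Kif3a, by 0.29 ± 0.09.

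Kif1a, the motor of synaptic vesicle precursors, read 6.58, 6.60, 6.36 and 6.35 in the TIC arrays and 8.05, 6.89, 6.66 and 6.57 in the CD24-negative arrays. Its difference of -0.57 ± 0.23 was not called (limma, adjusted p = 0.218) and amounted to -1.47 in N251 against -0.23 to -0.30 elsewhere. The median difference of the neuronal and neuroendocrine markers was -0.06. The conventional kinesin heavy chains had intervals that include 0 but leave room for modest differences. They stood at 0.18 (Kif5b, 95% interval -0.12 to 0.48), 0.19 (Kif5a, -0.09 to 0.48) and -0.08 (Kif5c, -0.44 to 0.27). Kif5c varied by tumor more than by fraction, reading 7.66 and 8.18 in the pool (TIC, then CD24-negative) and 6.66 to 7.11 in the other 6 arrays. The mitochondrial and vesicle motor Kif1b (0.14, -0.18 to 0.46) and the endosome motors Kif16b (0.22, -0.17 to 0.61) and Kif13a (0.28, -0.01 to 0.57) leave room for modest differences, whereas the intervals of Kif13b (-0.04, -0.22 to 0.13) and Kif17 (0.02, -0.17 to 0.21) are narrow.

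**Figure D2:**
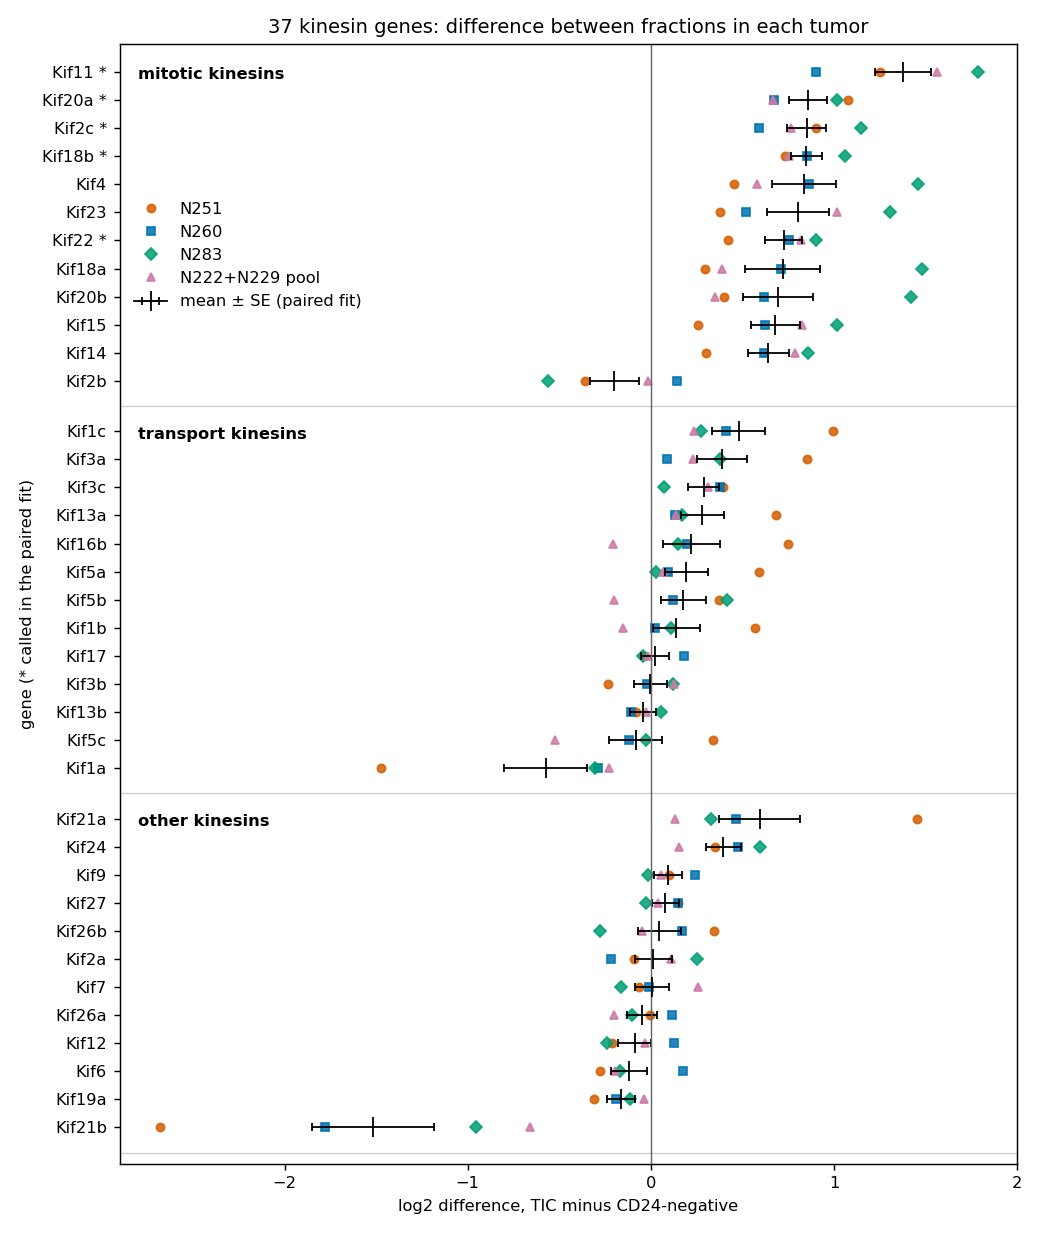
Log2 difference, TIC minus CD24-negative (horizontal axis), of each of the 37 kinesin genes (vertical axis, by class), with a point for each tumor and the mean ± SE of the paired fit in black. The 5 called genes, all mitotic, are starred, and 11 of 12 mitotic genes have all points above 0; among transport kinesins N251 has the largest difference for 8 of 13 genes.

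The remaining 12 kinesins held the family's largest fall and no shared direction. In the paired fit 0 rose and 0 fell (limma; unadjusted p under 0.05 for 2 above and 1 below 0), and the median difference was 0.01. Kif21b, which restrains microtubule growth in neurons and lymphocytes, read 7.04, 7.003, 6.97 and 7.01 in the TIC arrays and 9.72, 8.78, 7.93 and 7.67 in the CD24-negative arrays of N251, N260, N283 and the pool. The TIC arrays were nearly identical. All lay below the lowest CD24-negative array, which held for 1 of 37 members and for 4.68% of all genes. The difference was -1.52 ± 0.33, or 2.86-fold lower on average, and was not called in the paired fit (limma, adjusted p = 0.0896, and 0.135 without the block), but was called with a random block (limma, adjusted p = 0.0321) and without N251 (limma, adjusted p = 0.0437, difference -1.13), where 2.41% of all genes fell. The CD24-negative arrays fell in the order N251, N260, N283 and pool, which is also the order of their mean leukocyte marker level, at 12.25, 11.38, 10.41 and 9.72. This order was not particular to Kif21b: Kif1a had it too, and Kif21a, Kif1c and Kif3a, among others, had the reverse. The part of leukocytes in the difference of Kif21b was not tested, and in bulk samples fewer cells of a type and less RNA per cell cannot be told apart.

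Kif21a, a close relative of Kif21b that acts at the cell cortex, went the other way. It read 8.66, 8.74, 8.74 and 8.82 in the TIC arrays and 7.21, 8.27, 8.41 and 8.69 in the CD24-negative arrays, a difference of 0.59 ± 0.22 (limma, adjusted p = 0.202). N251 contributed 1.45 and the other tumors 0.13 to 0.47, again with a tight TIC group (range 0.16) and a wide CD24-negative group (range 1.48). Kif24, a centriolar kinesin that holds back cilium formation, read 7.02, 7.18, 7.18 and 6.42 against 6.67, 6.70, 6.58 and 6.26 (0.39 ± 0.10; limma, adjusted p = 0.105). Its pattern resembled that of the mitotic class, with the pool lowest in both fractions and the largest gap in N283 (0.60).

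None of the remaining 9 was called in the paired fit. Kif2a, a depolymerase of neurons and spindle poles, differed by 0.01 (95% interval -0.24 to 0.26), unlike its relative Kif2c, though the difference between these 2 genes was not tested. The ciliary kinesins Kif7, of hedgehog signalling, Kif27, Kif9 and Kif19a differed by 0.01, 0.08, 0.09 and -0.16; Kif19a, which sets cilium length, was lower in all 4 tumors (limma, adjusted p = 0.283). Kif6 and Kif12 differed by -0.12 and -0.09. Kif26a and Kif26b, signalling members without motor activity, differed by -0.05 and 0.05. Second rows of Kif6 and Kif26b gave 0.04 and -0.10, opposite in sign to the rows used.

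**Figure D3:**
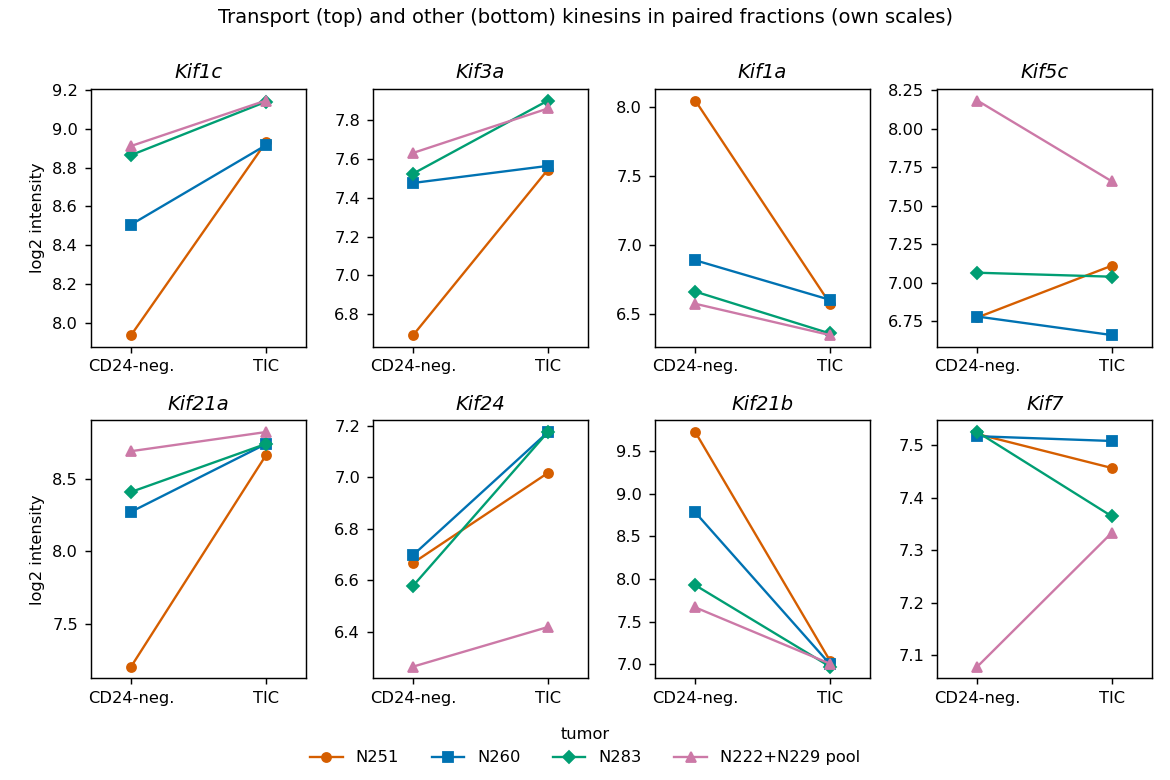
Log2 intensity of 4 transport kinesins (top row) and 4 other kinesins (bottom row) in the CD24-negative and TIC arrays of each tumor (horizontal axis), own scale in each panel. The TIC arrays of Kif21b sit between 6.97 and 7.04, below all of its CD24-negative arrays. Among CD24-negative arrays, that of N251 is the lowest in Kif1c, Kif3a and Kif21a and the highest in Kif1a.

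Mitotic and transport kinesins had their larger gaps in different tumors, a difference that was not tested. The median difference of the mitotic class was 0.41 in N251, 0.65 for N260, 1.10 for N283 and 0.76 for the pooled tumors. That of the transport class was 0.40, 0.09, 0.11 and -0.01. The mitotic median was the higher in each tumor, by the least in N251. Medians of the epithelial markers were 0.94, 0.22, 0.00 and 0.09, largest in N251 like those of the transport class. Medians of the leukocyte markers were -6.12, -5.52, -4.63 and -3.45. The mitotic median was smallest in N251, where leukocyte markers were farthest apart, and was 0.83 without N251. The largest mitotic median was in N283, however, whereas the smallest leukocyte gap was in the pool. Medians of the partners and regulators of mitotic kinesins were 0.82 (N251), 0.72 (N260), 1.21 (N283) and 0.78 (pool), so theirs was not smallest in N251. The part of cell composition in either class was not tested.

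**Figure D4:**
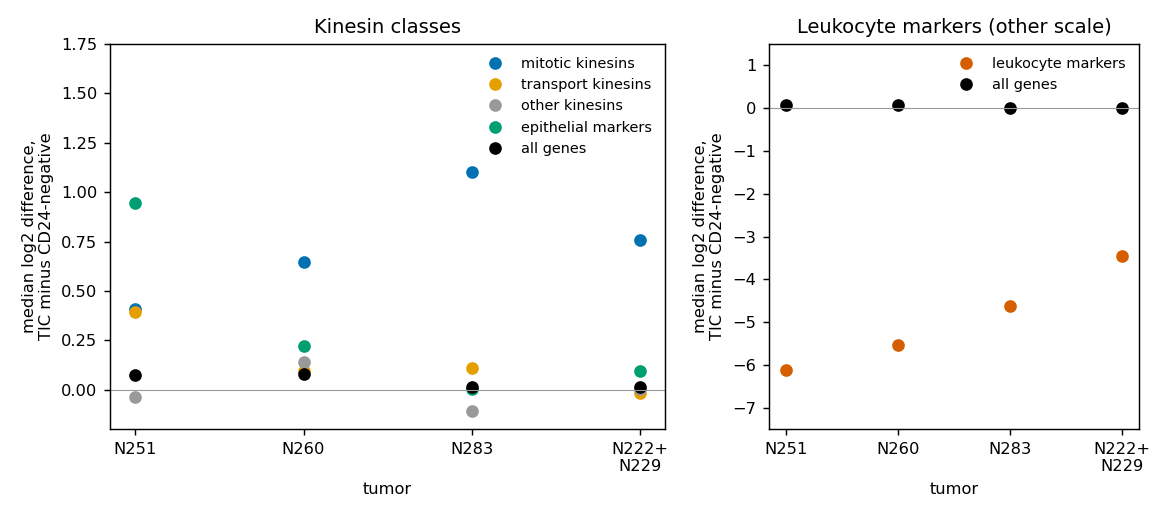
Median log2 difference, TIC minus CD24-negative (vertical axis), in each tumor (horizontal axis) for the 3 kinesin classes, 8 epithelial markers and all genes (left), and for 17 leukocyte markers (right, other scale). The mitotic median is highest in N283 at 1.10 and lowest in N251 at 0.41, whereas the transport median is 0.40 in N251 and near 0 elsewhere.

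Adaptors and the opposing motor, dynein, were not called. These lists are set against 14.2% of all genes above and 8.08% below 0 at an unadjusted p under 0.05, and 23.2% higher in all 4 tumors. Of 13 measured transport adaptors 0 were called (limma; median 0.02; unadjusted p under 0.05 for 3 above and 2 below 0), with the smallest p for Grip1, which links Kif5 to receptor cargo (0.97 ± 0.22; limma, adjusted p = 0.0945). Of 21 subunits and regulators of dynein and dynactin 0 were called (limma; median 0.12; unadjusted p under 0.05 for 3 above and 0 below 0), led by Dync1li2, a light intermediate chain (0.42 ± 0.12; limma, adjusted p = 0.14). Of 5 kinesin light chains and binding subunits 0 were called (limma; median 0.14; unadjusted p under 0.05 for 0), Klc3 differing by 0.43 ± 0.18 and Kifap3, the cargo subunit of kinesin-2, by 0.28 ± 0.12. Among genes of intraflagellar transport, the ciliary cargo trains that kinesin-2 moves, 13 of 16 were higher in all 4 tumors, with a median of 0.33. None of the 16 was called in the paired fit (limma; unadjusted p under 0.05 for 11 above and 0 below 0), and 2 rose with a random block (2.16% of all genes). Ift80 had the smallest p (0.55 ± 0.11; limma, adjusted p = 0.0742). Their median was 0.73 in N251 and 0.23 to 0.27 in the other tumors.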

How the data were processed

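RNA of 4 TIC and 4 CD24-negative fractions, purified with the PicoPure kit, was read on Affymetrix Mouse Gene 1.0 ST arrays. The authors deposited log2 intensities, processed with RMA and Partek per the submitters' processing notes, which as used here name no version or setting. Precision is limited by the number of arrays. In the paired fit, SEs and p-values rest on the spread among these 4 pairs, which limma moderates with the variances of all genes. Without the block they rest on the spread among arrays of a fraction, moderated likewise. Values ran from 1.76 to 14.6. Symbols came from the platform annotation (21789 of 35556 rows with exactly 1), and all 37 members matched the RefSeq table of GRCm38.p6 by gene identifier.

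Differences were estimated over all 19938 genes (limma 3.58.1, R 4.3.3, lmFit and eBayes) with the tumor as a fixed block, since the labels give both fractions of each tumor; same-tumor arrays deviated together from their group means, with correlations of 0.322, 0.435, 0.300 and 0.557. Called means a Benjamini-Hochberg adjusted p under 0.05. The fit without the block is given beside it. Members, classes, lists and the choice of the paired fit were made with earlier results of these data known, those of both fits included. Every member is named. Array values are given for called members and, in classes without calls, for the 3 largest differences; those of Kif2b and Kif5c were added after their values were seen. Pathway lists give the 3 called genes with the largest difference, or the gene with the smallest p; Cd24a, Krt5, Krt14, Dcn, Lum, Eng, Racgap1, Kifap3, Kifc2 and Kifc3 were added after their values were seen. Lists are described by counts and medians, with no test over members. The fits were checked on simulated data.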

Additional observations from a re-analysis of the deposited data

Results flagged for a closer look

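In 74 groups of 4 arrays, 2 for each kinesin, 3 held an array far from the other 3, where chance gives about 4. The CD24-negative array of the pool read 7.08 for Kif7 (others 7.52) and 9.08 for Kif13b (others 9.02). The CD24-negative array of N251 read 6.69 for Kif3a (others 7.48 to 7.63).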

How the results depend on the processing

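Alternatives changed the number of calls far more than the differences. The replicate block decided most calls: 172 genes rose and 218 fell with it, 10 and 148 without it, and 430 and 606 under a random block, while called mitotic kinesins numbered 5, 0 and 4. Cyclic loess gave 84 and 120 genes and 3 mitotic kinesins, testing every row 0, 2 and 0, array weights 445, 572 and 9, and an adjusted p under 0.01 gave 0, 0 and 0. An alternative chosen after seeing the data, no replicate block and no N251 arrays, gave 1, 118 and 0. Leaving out each replicate in turn gave 0 to 360 genes higher, 0 to 480 lower and 0 to 9 mitotic kinesins; leaving out N260 or N283 ended every call, and without the pool 74 genes rose and 299 fell. Called other kinesins that fell numbered 1, Kif21b, with the random block, with array weights and without N251 (0 to 1 over the replicates left out). The mitotic median stayed between 0.63 and 0.83 and the transport median between 0.05 and 0.24. Centring each array on its median moved the median of all genes from 0.04 to 0.07 and added Kif14 to the calls (limma, adjusted p = 0.0495); cyclic loess moved that median to -0.0021. Members near 0 changed sign. With replicates left out, Kif17 ran from -0.031 to 0.043, Kif1b from -0.0059 to 0.23, Kif26a from -0.10 to 0.0021, Kif26b from -0.052 to 0.15, Kif2a from -0.067 to 0.090, Kif3b from -0.046 to 0.074, Kif5c from -0.22 to 0.064 and Kif7 from -0.078 to 0.060. Without the block and N251, Kif1b was -0.0059, Kif26b -0.052 and Kif3b 0.074. Kif26b was -0.028 as the mean of its rows, Kif2a -0.088 and Kif7 -0.044 after cyclic loess, and Kif3b 0.029 after centring and 0.033 with array weights. The cause was not tested.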
